A study of Saccharomyces cerevisiae with 12 samples.

Results

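*GFA1*, *GNA1*, *PCM1* and *QRI1* encode the enzymes that turn fructose-6-phosphate into UDP-N-acetylglucosamine (UDP-GlcNAc), the activated sugar from which chitin is made. The genes were chosen by their place in this hexosamine pathway, with earlier results of these data known. They are 4 of the 5449 *Saccharomyces cerevisiae* genes with an assigned probe set on the GeneChip Yeast Genome 2.0 array, and each is read by 1 probe set. *GFA1* (YKL104C) lies on chromosome XI, *GNA1* (YFL017C) on chromosome VI, *PCM1* (YEL058W) on chromosome V and *QRI1* (YDL103C) on chromosome IV.

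Total RNA was hybridized to 12 arrays in 4 groups of 3, namely *sus1*Δ cells treated with Congo red (CR), untreated *sus1*Δ cells, WT cells treated with CR and untreated WT cells. WT is the haploid laboratory strain BY4741, and the *sus1*Δ mutant is the same strain with the *KanMX4* marker in place of *SUS1*, so both strains share the auxotrophies of BY4741. CR, a dye with affinity for chitin that impairs wall assembly, was used at 30 μg/mL in rich medium. The treatment lasted 3 h by the sample titles, the growth notes and the paper, but 2 h by the design text of the series, and this conflict could not be settled. Each of the 3 cultures of a strain was divided into a treated and an untreated part. Arrays with the same strain and replicate number were taken to come from 1 culture, which the sample titles do not state. A single *sus1*Δ strain was used, and effects of the *SUS1* deletion and of anything else particular to that strain cannot be told apart.

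The pathway works in a fixed order. Gfa1, the amidotransferase of the committed step, moves an amino group from glutamine onto fructose-6-phosphate and is the enzyme at which the pathway is mainly controlled. Gna1 then acetylates glucosamine-6-phosphate with acetyl-CoA, Pcm1 shifts the phosphate to the anomeric position, and Qri1, the pyrophosphorylase, joins the product to uridine monophosphate from UTP. In yeast UDP-GlcNAc feeds chitin synthases, the first steps of N-glycosylation and of GPI anchors, and each of the enzymes is essential for growth. Chitin is a minor component of the yeast wall, and cells deposit more of it when the wall is damaged.

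The values are log2 signals, in which 1 unit is a 2-fold difference. Signals of different probe sets are not comparable as amounts of RNA, so each gene was compared only with itself across arrays. The *SUS1* probe set was lower by a log2 difference of -5.47 in untreated *sus1*Δ cells and of -5.31 in CR-treated *sus1*Δ cells relative to WT cells, as the labels require. The markers of a MATa strain (*MFA1*, *MFA2*, *STE2*, *BAR1* and *STE6*) read 10.1 to 13.1 on all arrays, and of the markers of the other mating type *MF(ALPHA)1* read 3.03 to 4.61, *MF(ALPHA)2* 4.89 to 5.76, *STE3* 5.17 to 6.98 and *SAG1* 8.13 to 8.57. Of all these markers, *STE3* was higher in *sus1*Δ than in WT cells, by 1.47 untreated and 1.39 after CR, and *STE6* by 0.28 and 0.50. The untreated difference of *STE6* did not pass with culture as a block (adjusted p = 0.0518 from limma). On WT arrays *STE3* read 5.17 to 5.76, near the dim end of the signals given next. The array medians lay between 9.08 and 9.16, but the dimmest 5% of probe sets ended at 5.36 to 5.49 on *sus1*Δ arrays and at 4.53 to 4.80 on WT arrays. Both arrays of WT culture 3 stood farthest from the other arrays of their groups, with root mean square differences over all genes of 0.343 and 0.354, against 0.239 to 0.285 for the other WT arrays and 0.133 to 0.160 for *sus1*Δ arrays. Precision is limited by the number of arrays, here 3 per group. In RNA from whole cultures, fewer cells that express a gene and less RNA per cell cannot be told apart.

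CR raised the transcript levels of *GFA1* and *PCM1* in both strains, whereas no change passed the test for *GNA1* and *QRI1* in either. Calls rest on the moderated test of limma with Benjamini-Hochberg adjustment over the 5449 genes, and a gene was called at an adjusted p under 0.05. In *sus1*Δ cells 2 of the 4 genes were called higher and 0 lower (also 0 lower at an unadjusted p under 0.05), where 1.39% of all genes were called higher and 0.147% lower. In WT cells the same 2 of 4 were called higher and 0 lower (again 0 at an unadjusted p under 0.05), where the shares over all genes were 9.40% and 9.01%. The median log2 change of the 4 genes was 0.40 in *sus1*Δ and 0.60 in WT cells, beside -0.03 and -0.02 for all genes.

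*GFA1* read 12.05, 11.97 and 12.15 in the CR-treated *sus1*Δ cultures 1, 2 and 3, against 10.81, 10.91 and 10.93 in their untreated parts. In WT cells it read 12.13, 12.43 and 12.20 with CR, against 10.54, 10.95 and 10.78 without it. Every treated array lay above every untreated one, with an empty interval of 1.03 between them in *sus1*Δ and of 1.17 in WT cells. The groups averaged 12.06 ± 0.0945 with CR and 10.88 ± 0.068 without it in *sus1*Δ cells, and 12.25 ± 0.159 with CR and 10.76 ± 0.211 without it in WT cells (SD, n = 3 each). The rise was 2.26-fold in *sus1*Δ cells (log2 change 1.17, 95% interval 0.93 to 1.42, adjusted p = 0.000139 from limma) and 2.82-fold in WT cells (1.50, 1.25 to 1.74, adjusted p = 6.53e-06 from limma). Ordered by log2 change over all genes, *GFA1* held the 24th place from the top in *sus1*Δ and the 30th in WT cells.

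*PCM1*, the mutase gene, moved in the same direction. It read 11.56, 11.53 and 11.53 in CR-treated *sus1*Δ cultures 1, 2 and 3, against 10.68, 10.81 and 10.73 in the untreated parts. The WT cultures gave 11.88, 12.01 and 11.79 with CR, against 10.53, 10.76 and 10.65 without it. Treated and untreated arrays were again separate in both strains, by 0.72 in *sus1*Δ and 1.03 in WT cells. The means were 11.54 ± 0.0173 with CR and 10.74 ± 0.0631 without it in *sus1*Δ cells, and 11.89 ± 0.110 with CR and 10.64 ± 0.119 without it in WT cells (SD, n = 3 each). *PCM1* rose 1.74-fold in *sus1*Δ cells (log2 change 0.80, 95% interval 0.62 to 0.98, adjusted p = 0.000181 from limma) and 2.38-fold in WT cells (1.25, 1.07 to 1.43, adjusted p = 2.27e-06 from limma). It held the 41st place from the top in *sus1*Δ and the 53rd in WT cells.

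Taking called genes with a ratio of at least 2, *GFA1* alone of the 4 reached this size in *sus1*Δ cells, as did 0.496% of all genes, while *GFA1* and *PCM1* both reached it in WT cells, as did 1.58%. Treated arrays that all lay above the untreated ones were found for *GFA1* and *PCM1* only, and for 11.2% of all genes in *sus1*Δ and 12.8% in WT cells.

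*GNA1*, the acetyltransferase gene, had 10.26, 10.11 and 10.23 in CR-treated *sus1*Δ cultures 1, 2 and 3, against 10.27, 10.19 and 10.17 in the untreated parts. In WT cells it had 9.79, 9.44 and 9.53 with CR, against 10.00, 9.78 and 9.61 without it. The treated and untreated arrays overlapped in both strains. The log2 change with CR was -0.01 in *sus1*Δ cells (95% interval -0.25 to 0.24, adjusted p = 0.999 from limma) and -0.21 in WT cells (-0.45 to 0.03, adjusted p = 0.228 from limma), so the intervals leave room for a moderate fall in WT cells but for no rise of the size seen for *GFA1*.

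*QRI1*, the pyrophosphorylase gene of the last step, was the flattest of the 4. It read 9.97, 9.85 and 9.77 in CR-treated *sus1*Δ cells, against 9.79, 9.85 and 9.93 in untreated ones, and between 9.78 and 10.01 in CR-treated WT cells, against 9.82 to 10.03 in untreated ones. No pair of groups was separate. The log2 change with CR was 0.00 in *sus1*Δ cells (95% interval -0.19 to 0.19, adjusted p = 0.999 from limma) and -0.04 in WT cells (-0.23 to 0.15, adjusted p = 0.787 from limma). Over all 12 arrays its SD was 0.0912, against 0.304 for *GNA1*, 0.556 for *PCM1* and 0.713 for *GFA1*.

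**Figure D1:**
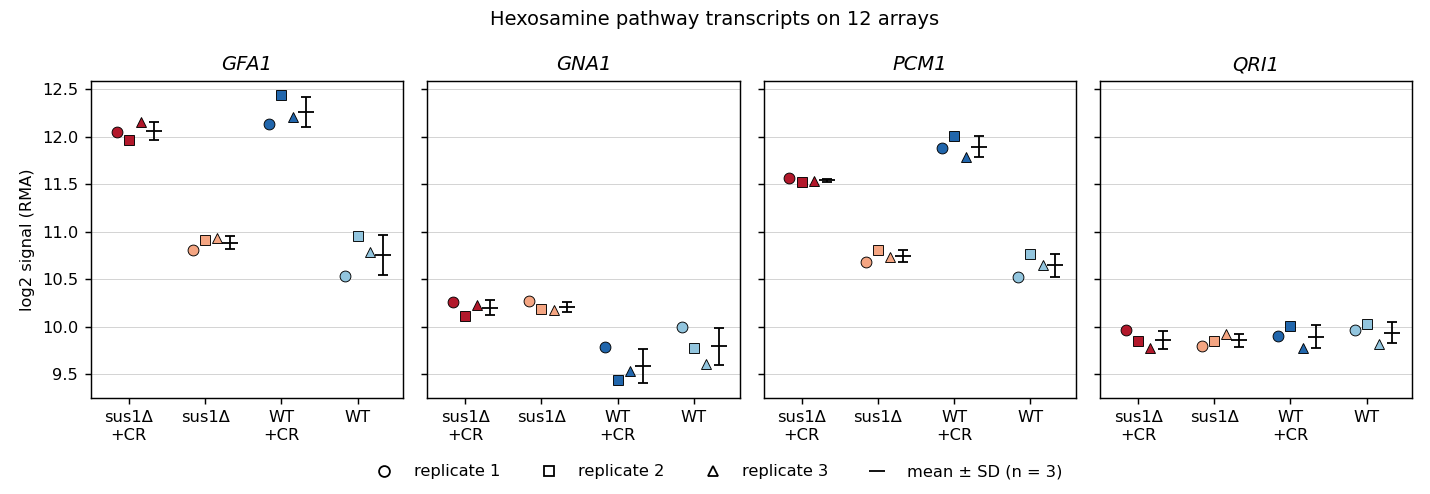
The log2 signals of the 4 hexosamine pathway genes are plotted for each array by group, with symbols for the replicate number and bars for the mean ± SD (n = 3). *GFA1* and *PCM1* lie higher in both CR-treated groups, *GNA1* lies higher in both *sus1*Δ groups, and *QRI1* stays between 9.77 and 10.03 on every array.

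The difference between the strains followed another gene of the pathway. *GNA1* was higher in *sus1*Δ than in WT cells with and without CR, and after CR *PCM1* was lower. In untreated cells 1 of the 4 genes was called higher and 0 lower (0 lower also at an unadjusted p under 0.05), where 14.3% of all genes were called higher and 7.08% lower. After CR 1 of 4 was higher and 1 of 4 lower, where the shares were 16.8% and 10.9%, so the counts of the pathway are near what all genes show. After quantile normalization of the tested genes the counts over all genes moved to 528 higher and 527 lower in untreated cells, beside 781 and 386 without it, and to 737 higher and 815 lower after CR, beside 914 and 593. The median difference of the 4 genes was 0.11 untreated and -0.12 after CR, beside 0.03 for all genes in both.

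The mean signal of *GNA1* was 10.21 ± 0.0512 in untreated *sus1*Δ and 9.80 ± 0.195 in untreated WT cells (SD, n = 3 each), and 10.20 ± 0.0804 in CR-treated *sus1*Δ and 9.59 ± 0.181 in CR-treated WT cells (SD, n = 3 each). All *sus1*Δ arrays lay above all WT arrays, by 0.17 without CR and 0.32 with it, as was the case for 25.3% and 26.0% of all genes. The log2 difference was 0.41 in untreated cells (95% interval 0.17 to 0.66, adjusted p = 0.0234 from limma), which is 1.33-fold, and 0.62 after CR (0.37 to 0.86, adjusted p = 0.00248 from limma), which is 1.53-fold. The untreated difference was no longer called when untreated WT replicate 2 or 3 or any untreated *sus1*Δ replicate was left out (adjusted p = 0.0534 to 0.0815), and without both arrays of WT culture 3 it was 0.32 (adjusted p = 0.0518). The difference after CR stayed past the threshold without any single array (adjusted p = 0.00136 to 0.0131) and was 0.59 without WT culture 3. Dim probe sets read higher on *sus1*Δ arrays, and *GNA1* stood between percentiles 57.3 and 76.0 of the signals of each array. Among 584 genes within 0.25 log2 units of its mean signal, the median *sus1*Δ to WT difference was -0.0056 untreated and -0.0094 after CR, and 5.14% and 2.57% of them had a larger difference than *GNA1*.

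For *PCM1* the log2 difference between *sus1*Δ and WT cells was 0.10 without CR (95% interval -0.08 to 0.27, adjusted p = 0.42 from limma) and -0.35 after CR (-0.53 to -0.18, adjusted p = 0.00837 from limma). After CR the ratio was 0.783, and all *sus1*Δ arrays lay below all WT arrays, by 0.23, as did those of 19.3% of all genes. Among 263 genes within 0.25 log2 units of its mean signal over the 12 arrays, the median difference after CR was -0.0076, and 91.6% had a higher value than *PCM1*. The order of the group means was thus CR-treated WT, CR-treated *sus1*Δ, untreated *sus1*Δ and untreated WT, and only the last neighbours in this order did not differ beyond their spread. *GFA1* had the same order of means. Its strain differences of 0.12 without CR (95% interval -0.12 to 0.37, adjusted p = 0.46 from limma) and -0.20 after CR (-0.45 to 0.05, adjusted p = 0.213 from limma) did not pass the test, and the arrays of the strains overlapped. *QRI1* differed between the strains by -0.08 without CR (-0.27 to 0.11) and -0.03 after CR (-0.23 to 0.16), with adjusted p of 0.534 and 0.794 from limma.

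**Figure D2:**
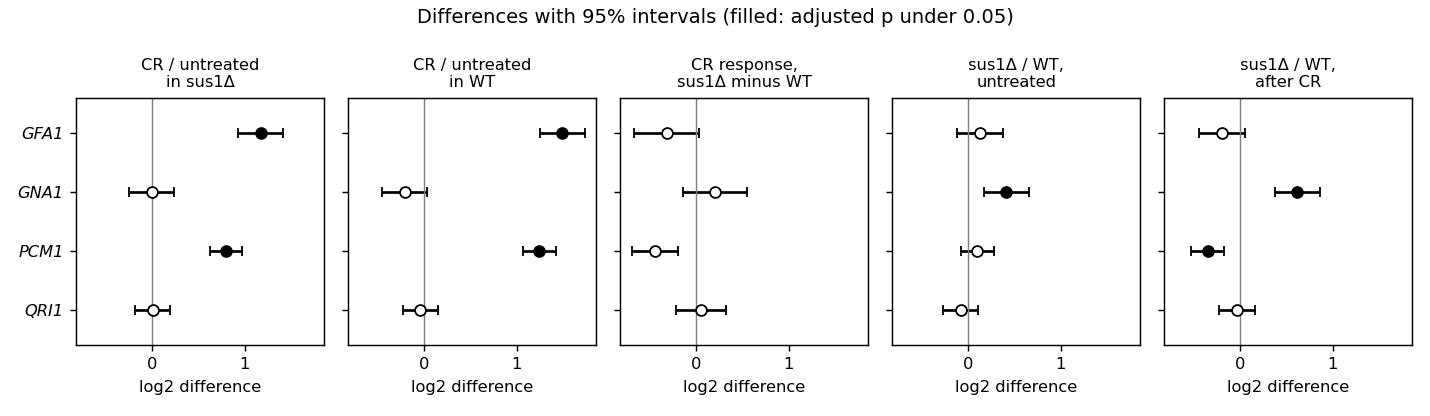
Log2 differences of the 4 genes are plotted with 95% intervals for CR against untreated cells of each strain, for the difference between the CR responses of the strains, and for *sus1*Δ against WT cells without and with CR. Filled points have an adjusted p under 0.05, which applies to *GFA1* and *PCM1* with CR, to *GNA1* in both strain comparisons and to *PCM1* in the strain comparison after CR.

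Whether the deletion of *SUS1* changed the response to CR was asked within cultures. The log2 change of *PCM1* with CR was 0.88, 0.72 and 0.80 in *sus1*Δ cultures 1, 2 and 3, against 1.35, 1.25 and 1.14 in WT cultures. The change of *GFA1* was 1.24, 1.06 and 1.22 in *sus1*Δ cultures, against 1.59, 1.48 and 1.42 in WT cultures. For both genes every *sus1*Δ culture responded less than every WT culture, as was the case for 13.0% of all genes. *GNA1* changed by -0.0028, -0.07 and 0.06 in *sus1*Δ cultures, against -0.21, -0.34 and -0.08 in WT cultures, so its *sus1*Δ values lay above the WT values, as for 10.2% of all genes, but *sus1*Δ culture 2 (-0.0746) and WT culture 3 (-0.0752) were all but equal. *QRI1* changed by 0.17, -0.00 and -0.15 in *sus1*Δ cultures, against -0.06 to -0.03 in WT cultures, which overlap. An exact two-sided permutation test of 3 cultures against 3 gave p = 0.1 for *GFA1*, *GNA1* and *PCM1*, the smallest p that this design allows, and p = 0.7 for *QRI1*.

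The response of *PCM1* in *sus1*Δ cells was smaller by a log2 difference of -0.45 (standard error 0.114, 95% interval -0.70 to -0.20), so the *sus1*Δ ratio was 0.732 times the WT ratio. Its adjusted p was 0.231 in the limma fit without pairing and 0.0322 in the fit with culture as a random block. For *GFA1* the difference was -0.32 (95% interval -0.67 to 0.03, adjusted p = 0.648, and 0.186 with culture as a block, both from limma), or 0.80 times the WT ratio. *GNA1* and *QRI1* differed by 0.20 (-0.14 to 0.55) and 0.05 (-0.22 to 0.32), with adjusted p of 0.827 and 0.983 from limma. In the unpaired fit 0 of the 4 genes were called in either direction by limma (1, *PCM1*, at an unadjusted p under 0.05), and over all genes 0.0734% were called lower and 0% higher. With culture as a block the calls over all genes were 60 lower and 27 higher, against 4 and 0 without it.

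The induced genes as a group are set beside these sizes. Among the 86 genes called with a ratio of at least 2 in WT cells, which were chosen by their WT values, the *sus1*Δ ratio was a median of 0.656 times the WT ratio, and 82 of the 86 had a value below 1. The WT ratio is also the divisor, so this choice by itself tends to push the values below 1. That holds for *GFA1* and *PCM1* as well, and the size of this effect was not tested. *PCM1* ranked 63rd and *GFA1* 77th from the lowest, so most of the induced genes had a lower ratio than either. Below 0.65, the limit set in the methods for a reduced response, lay 41 of the 86 genes, and neither *GFA1* nor *PCM1* was among them.

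**Figure D3:**
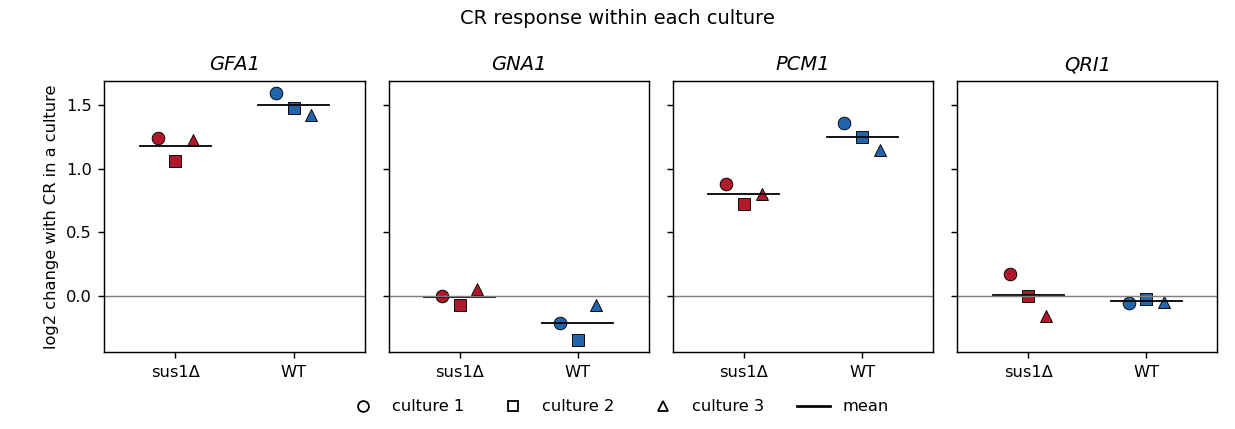
The log2 change with CR is plotted for each culture, with *sus1*Δ left of WT and a line at the mean of 3 cultures. For *GFA1* and *PCM1* the 3 *sus1*Δ cultures lie below the 3 WT cultures, with means of 1.17 and 0.80 in *sus1*Δ and 1.50 and 1.25 in WT cells.

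**Figure D4:**
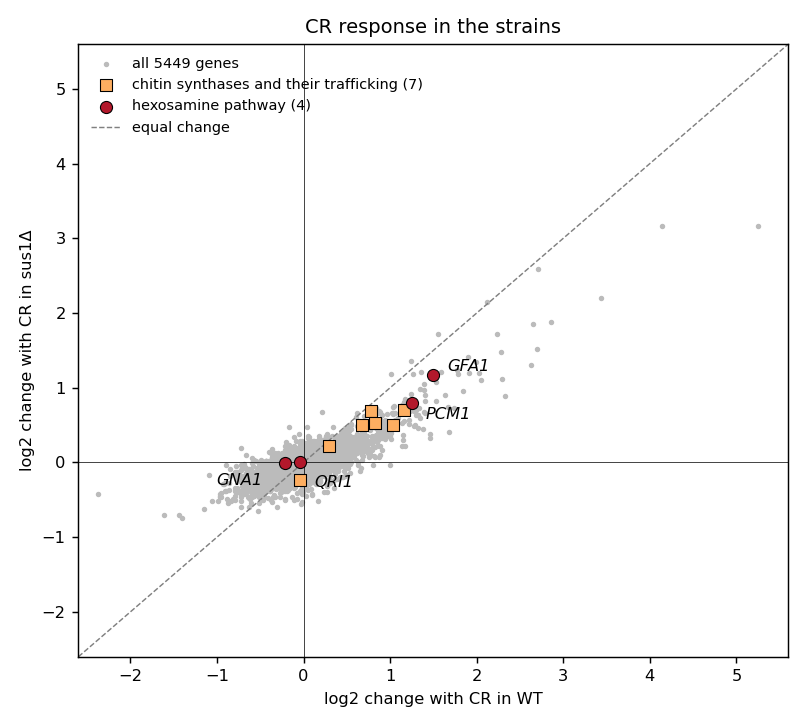
The log2 change with CR in *sus1*Δ cells is plotted against that in WT cells for all 5449 genes, with the 4 hexosamine pathway genes and 7 genes of chitin synthases and their trafficking marked. *GFA1* and *PCM1* lie below the line of equal change at WT changes of 1.50 and 1.25, and *GNA1* and *QRI1* lie near the origin.

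Most, but not all, of the measured genes for the use of UDP-GlcNAc in chitin were called higher with CR. Of 7 genes of chitin synthases and of proteins that activate or carry Chs3, 4 were called higher with CR in *sus1*Δ cells and 5 in WT cells, with median log2 changes of 0.50 and 0.77. Over all genes 1.39% were called higher in *sus1*Δ cells and 9.40% in WT cells. *CHS1*, which encodes the synthase that repairs the septum, rose by 0.70 (adjusted p = 0.00144 from limma) in *sus1*Δ and 1.16 (9.76e-06) in WT cells. *CHS7*, which encodes the chaperone for exit of Chs3 from the endoplasmic reticulum, rose by 0.53 and 0.83, and *SKT5*, which encodes the activator of Chs3, by 0.50 and 0.68. *CHS6*, whose product carries Chs3 to the plasma membrane, rose by 1.03 in WT cells, while its change of 0.50 in *sus1*Δ cells had an adjusted p of 0.0953 (0.0102 with culture as a block, both from limma). *CHS3* itself, named here after its values were seen because it makes most of the chitin, rose by 0.69 in *sus1*Δ and 0.77 in WT cells (adjusted p = 0.0211 and 0.00195 from limma). *CHS2*, for the synthase of the primary septum, was not called in either strain, nor was *CHS5*, for an exomer subunit, although *CHS5* passed in WT cells with culture as a block (log2 change 0.29, adjusted p = 0.0778, and 0.0108 with the block, both from limma).

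Between the strains, *CHS7* was lower in untreated *sus1*Δ cells by a log2 difference of -0.47 (1 of 7 genes, where 7.08% of all genes were lower, and without WT culture 3 the list had 2 lower and 1 higher). After CR 4 of the 7 genes were lower in *sus1*Δ than in WT cells, where 10.9% of all genes were lower, namely *CHS7* (-0.77), *CHS6* (-0.50), *CHS3* (-0.40) and *CHS1* (-0.34), as was *PCM1*. The response difference of *CHS1* was -0.46 (adjusted p = 0.287, and 0.0332 with culture as a block, both from limma), close in size to that of *PCM1*. *CHS1* also had the profile nearest to that of *PCM1* over all arrays, so these observations are not independent.

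Calls with CR among the genes that supply the pathway are set beside the shares over all genes. These shares were 9.40% higher and 9.01% lower in WT cells, and 1.39% and 0.147% in *sus1*Δ cells. Whether the calls in these small lists differ from those shares was not tested. Among 7 genes for enzymes that phosphorylate glucose or make or use fructose-6-phosphate, *GLK1*, a glucokinase gene, was the only one called with CR. Its log2 change was 0.51 in WT cells (adjusted p = 0.0218 from limma) against 0.12 in *sus1*Δ cells (adjusted p = 0.891 from limma). The list had median log2 changes of -0.02 in *sus1*Δ and 0.16 in WT cells. *GLK1* was also higher in untreated *sus1*Δ than in WT cells, by 0.43 (adjusted p = 0.0428 from limma, 0.0665 without WT culture 3). *HXK1*, a hexokinase gene, had a log2 difference of -1.14 after CR (adjusted p = 0.0834, 0.0483 with culture as a block and 0.00426 without WT culture 3, all from limma). Of 6 genes that provide glutamine, acetyl-CoA and UTP or remove pyrophosphate, 0 were called with CR in either strain by limma (also 0 at an unadjusted p under 0.05), and their changes lay between -0.08 and 0.09. In untreated cells *GLN1*, the glutamine synthetase gene, was lower in *sus1*Δ than in WT cells by -0.31 (adjusted p = 0.0375 from limma). *ACS2*, an acetyl-CoA synthetase gene, was higher by 0.30 (adjusted p = 0.0311, and 0.0501 with culture as a block, both from limma). *URA6*, a uridylate kinase gene, was lower after CR by -0.26 (adjusted p = 0.0395, and 0.0501 with culture as a block, both from limma). Of 6 genes for UDP-glucose and GDP-mannose, the sugar donors for glucan and mannoprotein, only the phosphoglucomutase gene *PGM1* was called with CR, by 0.29 in WT cells (adjusted p = 0.0325 from limma, 0.0882 without WT culture 3), and after CR it was lower in *sus1*Δ than in WT cells by -0.30 (adjusted p = 0.0216 from limma, 0.0535 without WT culture 3). *PSA1*, the GDP-mannose pyrophosphorylase gene, passed with CR in WT cells with culture as a block (0.23, adjusted p = 0.0562, and 0.01 with the block, both from limma).

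UDP-GlcNAc also goes to lipids and glycans. Of 11 genes for these transfers, *SPT14*, which encodes the catalytic subunit of the first step of GPI anchors, rose by 0.69 with CR in WT cells (adjusted p = 0.000783 from limma), and in *sus1*Δ cells it changed by 0.39 (adjusted p = 0.113, and 0.0148 with culture as a block, both from limma). *GPI15*, a subunit of the same enzyme, fell by 0.36 in WT cells (adjusted p = 0.0152 from limma, 0.0531 without WT culture 3), and the other 9 were not called with CR. Over all genes 9.40% were called higher and 9.01% lower with CR in WT cells. Between the strains 2 of the 11 were higher and 1 lower in untreated *sus1*Δ cells, where the shares over all genes were 14.3% and 7.08%, and 2 were higher and 3 lower after CR, where the shares were 16.8% and 10.9%. *GPI15* was lower in both (-0.61 and -0.40). *GPI19*, a subunit of the same enzyme named after its values were seen, was higher in both (1.67 and 1.49), but read 5.41 to 5.68 on *sus1*Δ and 3.48 to 4.36 on WT arrays, which is in the dim range whose end differs between the strains. Of 4 genes of chitin hydrolysis and deacetylation, 0 were called with CR by limma (1 higher in *sus1*Δ cells at an unadjusted p under 0.05). This was *CTS1*, the endochitinase gene of cell separation, at 0.26 (adjusted p = 0.236, and 0.0429 with culture as a block, both from limma). In untreated *sus1*Δ against WT cells 1 of the 4 was called higher and 0 lower, where the shares were 14.3% and 7.08%. It was *CDA1*, a chitin deacetylase gene, at 1.10 (adjusted p = 0.00735 from limma with culture as a block). *CDA1* read 5.19 to 5.59 on untreated *sus1*Δ and 4.03 to 4.68 on untreated WT arrays, near that dim range. After CR 0 were called between the strains. The reading frames YMR084W and YMR085W, which together resemble *GFA1*, were not called with CR in either strain. In untreated cells both were higher in *sus1*Δ than in WT cells, by 1.06 and 0.43, and after CR only YMR084W was called (0.86). YMR084W read 4.77 to 5.12 on *sus1*Δ and 3.77 to 4.08 on WT arrays, which is in that dim range too. YMR085W read above it, at 7.04 to 7.20 on untreated *sus1*Δ and 6.65 to 6.72 on untreated WT arrays.

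**Figure D5:**
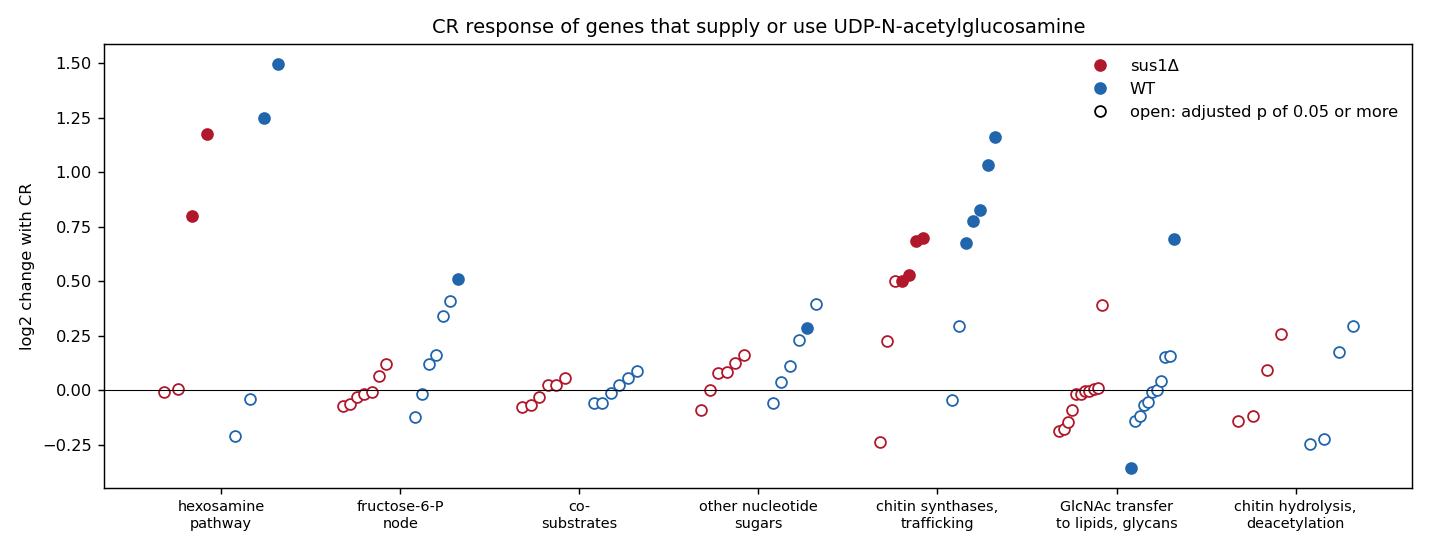
Each point is the log2 change of 1 gene with CR in *sus1*Δ (left) or WT cells (right) for the hexosamine pathway and 6 lists of genes that supply or use UDP-GlcNAc, and filled points have an adjusted p under 0.05. The filled points gather in the hexosamine pathway and among the chitin synthases, where 4 of 7 genes in *sus1*Δ and 5 of 7 in WT cells were called higher. Over all genes the shares called higher were 1.39% in *sus1*Δ and 9.40% in WT cells.

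The 3 genes whose profile over the 12 arrays was nearest to that of each enzyme gene were found after centring each gene on its own mean. *PCM1* was nearest to *CHS1*, with a root mean square difference of 0.0772 log2 units, to *DFG5*, which encodes a GPI-anchored protein of cell wall assembly (0.0897), and to YIL108W (0.125). The nearest genes to *GFA1* were *PTP2*, which encodes a phosphatase of MAP kinases (0.147), *YPS1*, which encodes a cell wall protease (0.154), and *YKE4*, a zinc transporter gene (0.178), with *PCM1* in the 4th place at 0.18. *GNA1* was nearest to *CSE4*, which encodes the centromeric histone H3 variant (0.0875), *MTF1*, which encodes the specificity factor of the mitochondrial RNA polymerase (0.0894), and *CUE4* (0.0964). Each was higher in *sus1*Δ than in WT cells in both conditions (log2 differences of 0.40 to 0.62) and was not called with CR. As they were chosen for a profile near that of *GNA1*, their sharing of its pattern follows from the choice. For *MTF1* the strain differences were not called without WT culture 3 (adjusted p = 0.0545 and 0.0553 from limma). For *QRI1* the nearest were *SWE1*, a gene for a kinase that delays mitosis (0.0538), *LPD1*, a dihydrolipoamide dehydrogenase gene (0.0638), and *VMA3*, a gene of the vacuolar ATPase (0.065), at distances not far below its own SD of 0.0912.

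In the R64 annotation the nearest measured genes along the chromosomes differed in how far they shared the changes. *SOM1*, a gene for a mitochondrial peptidase subunit that lies before *PCM1* and is read from the other strand, rose by a log2 change of 1.06 with CR in WT cells (adjusted p = 0.000604 from limma), and in *sus1*Δ cells it changed by 0.66 (adjusted p = 0.0519, and 0.005 with culture as a block, both from limma). *SDD1*, on the far side of *PCM1*, was not called in any comparison. *SMX2*, a gene for a spliceosomal Sm protein that faces *GNA1* end to end, was higher in *sus1*Δ than in WT cells by 0.33 untreated (adjusted p = 0.0424 from limma) and by 0.50 after CR (adjusted p = 0.00468 from limma), and like *GNA1* it was not called with CR. The other neighbour of *GNA1*, *MDJ1*, which encodes a mitochondrial chaperone, was lower in *sus1*Δ cells by -0.29 untreated (adjusted p = 0.0358 from limma, 0.0649 without WT culture 3) and by -0.35 after CR (adjusted p = 0.0125 from limma). *APE1*, a vacuolar aminopeptidase gene upstream of *GFA1*, fell with CR, by -0.70 in *sus1*Δ (adjusted p = 0.0288 from limma) and -1.62 in WT cells (adjusted p = 1.97e-05 from limma), and *SEG2* on the other side was not called with CR. The neighbours of *QRI1*, *QRI7* and *POL3*, were not called in any comparison, although *QRI7* passed with CR in WT cells with culture as a block (-0.29, adjusted p = 0.0781, and 0.0146 with the block, both from limma).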

How the data were processed

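The authors converted the scanned Affymetrix arrays into log2 signals by RMA (background correction, normalization between arrays and summary over probes) in the Expression Console and deposited these log2 values for 5739 probe sets. Its version, and which arrays were normalized together, was not given in the sources used here. Platform annotation gave 5498 probe sets to 1 gene and left 241 unnamed. For 47 genes the brightest of several probe sets was used.

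In R 4.3.3, limma 3.58.1 fitted a mean per group to all 12 arrays, and two-sided p-values were adjusted over 5449 genes. The fit without a block was tested on simulated data with independent arrays and the same spread in all groups. That simulation did not cover the culture block or the wider spread of WT arrays. The methods state that each culture was divided, and deviations from group means correlated at 0.247 to 0.716 in 6 pairs of 1 culture. In 12 other pairs of a strain they correlated at -0.595 to -0.00134. Because each group was centred on its mean, positive pairs of 1 culture pull the other pairs down, so those are no independent reference. Given the division of cultures, culture was also fitted as a random block. Values of both fits stand together where they differ in a call.

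The members and gene lists were chosen with earlier results of these data known. Named were the members, at most 4 genes per list (first those called in any comparison, by the moderated statistic for CR in WT cells, then in list order), chromosomal neighbours and the 3 nearest profiles. *CHS2*, *CHS3*, *CHS5*, *GPI19* and *PSA1* were named after their values were seen. Alternatives changed the test, fold, probe sets, filter on low signals, scaling, samples, block, variance model, threshold and replicates. A planned promoter motif search was not run. All 12 arrays were used.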

Additional observations from a re-analysis of the deposited data

Results flagged for a closer look

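For 6 of the genes named above, the CR response differed between the strains in the limma fit with culture as a random block only. Over all 5449 genes that fit called 60 lower and 27 higher. *PCM1* responded less in *sus1*Δ cells, with a log2 difference of -0.45 (adjusted p = 0.0322, and 0.231 without the block). *CHS1* differed by -0.46 (0.0332, and 0.287 without the block), with changes of 0.64 to 0.74 in the *sus1*Δ cultures, against 1.12 to 1.19 in the WT cultures. The next 3 genes were named because their profiles over these arrays were nearest to *GFA1* or *PCM1*, as was *CHS1*, so their differences are not independent of those of the members. *PTP2* differed by -0.43 (adjusted p = 0.0434, and 0.301 without the block), *DFG5* by -0.59 (0.0159 and 0.135) and YIL108W by -0.68 (0.0263 and 0.243). *APE1*, the neighbour of *GFA1*, fell less in *sus1*Δ cells, with a difference of 0.92 (0.0138 and 0.14), and it changed by -0.76 to -0.63 in the *sus1*Δ cultures, against -1.72 to -1.42 in the WT cultures. None of the 6 differences passed the threshold in the fit without the block.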

How the results depend on the processing

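Of the comparisons of members with alternatives, 486 kept their direction and their side of the threshold, 9 fell below it, 1 moved past it and 12 changed sign. The rises of *GFA1* and *PCM1* with CR passed the threshold in every alternative and without any single array, with log2 changes for *GFA1* of 1.12 to 1.22 in *sus1*Δ cells, against 1.38 to 1.59 in WT cells, and for *PCM1* of 0.77 to 0.83 in *sus1*Δ cells, against 1.19 to 1.31 in WT cells, when 1 array was left out. The count of members higher in untreated *sus1*Δ than in WT cells was 1, but 0 with the methods' t-test after Benjamini-Hochberg adjustment (*GNA1* adjusted p = 0.115), at an adjusted p under 0.01 and without WT culture 3, and 0 to 1 when single arrays were left out. After CR this count was 1, but 0 with the methods' t-test after adjustment (adjusted p = 0.0501). With culture as a replicate block, the count of members with a lower CR response in *sus1*Δ cells was 1 in place of 0 (*PCM1*), and with replicate number as a fixed block it stayed at 0 (*PCM1* adjusted p = 0.137). Neither block changed another call of a member.

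The 12 changes of sign were at values near 0 that were never called. For *GNA1* with CR in *sus1*Δ cells the change was 0.0031 after median centring, 0.0014 with array weights and -0.038 to 0.039 without single arrays. For *QRI1* the ranges without single arrays were -0.048 to 0.048 with CR in *sus1*Δ cells, -0.10 to 0.018 with CR in WT cells, -0.10 to 0.021 for *sus1*Δ against WT after CR and -0.014 to 0.11 for the response difference. Counts over all genes moved more. Over the alternatives other than leaving out 1 array, the number higher with CR was 54 to 451 in *sus1*Δ cells (76 in the fit reported) and 71 to 812 in WT cells (512), and the number lower was 1 to 622 (8) and 16 to 892 (491). For *sus1*Δ against WT cells it was 174 to 1138 higher (781) and 75 to 640 lower (386) untreated, and 365 to 1073 higher (914) and 239 to 815 lower (593) after CR. The cause of these shifts was not tested. The t-test and the fit of 2 groups give no value for the response difference, and the promoter search was not run.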
